A study of Homo sapiens with 17 samples.

Results

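Aminoacyl-tRNA synthetases attach each amino acid to its tRNA, the step on which every codon read by a ribosome depends. Human cells hold a cytosolic set and a mitochondrial set, both encoded in the nucleus, and several cytosolic enzymes sit in a multi-synthetase complex held together by the scaffold proteins AIMP1, AIMP2 and EEF1E1. The promoters of many cytosolic synthetase genes are known to respond to ATF4, the transcription factor of the integrated stress response, which acts when translation initiation is limited or amino acids are scarce. The genes described here are 39 members of this family: 20 genes of cytosolic synthetases, the 3 scaffold genes and 16 genes of mitochondrial synthetases. They were chosen by name, not by their values, and are 39 of 15660 genes counted at 36 h and of 17023 counted at 72 h. All 39 passed the minimum of 20 mean counts in footprint and in mRNA libraries at both time points, where 9016 and 10896 genes were tested.

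The libraries came from HEK293 cells, a human embryonic kidney line, that were electroporated with a ribonucleoprotein (RNP) of a guide RNA, sgIntron, and either Cas9 or dCas9. The guide targets an intron of JAK2. Cas9 cuts there, whereas dCas9 binds without cutting, so both groups carry the guide, the protein and the electroporation, and the comparison asks what the break adds. Ribosome footprints (RNA protected from RNase by ribosomes) and mRNA (total RNA depleted of ribosomal RNA) were sequenced 36 h and 72 h later. The guides of 36 h were synthetic and those of 72 h came from in vitro transcription. The methods name different aligners and annotations for the time points, which were therefore analysed apart. At 36 h there were 2 footprint libraries of each nuclease, 3 mRNA libraries of Cas9 and 2 of dCas9, and at 72 h there were 2 of each kind, 17 libraries in all. According to the methods, a biological replicate is several small electroporations pooled on a plate. The p-values therefore measure the spread between such pools of a single cell line.

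Library totals ranged from 689636 to 4868580 counts for footprints and from 25095505 to 33350952 for mRNA at 36 h, and from 3183555 to 8864461 and from 33040296 to 42825667 at 72 h. The footprint libraries of 36 h were thus the shallowest and differed 7.06-fold in total. Of 6 HEK293 markers, 5 reached 1 CPM (a normalized count, relative to the library total) in every mRNA library (PAX2 did not), and none of the erythroid, blood cell and hepatocyte markers did so in every library, with summed levels of at most 1.73 CPM. Summed HEK293 markers were 1070 to 1120 CPM with Cas9 and 1110 to 1210 CPM with dCas9 at 36 h, and 800 to 919 CPM and 730 to 825 CPM at 72 h. VIM made up most of these sums, at 899 to 1020 CPM at 36 h and 571 to 745 CPM at 72 h. NEFM was lower with Cas9 in mRNA at 72 h, at 2.55 against 4.72 CPM (log2 change -0.89, adjusted p = 0.0327 by edgeR). NEFL, LIN28B, VIM and KRT18 did not pass that test. In bulk libraries like these, fewer cells of a kind and less RNA per cell cannot be told apart.

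RefSeq (GRCh38.p14) gave a promoter of 300 bases, from 250 before to 50 after the start site, for 33 of the 39 genes. LARS1, TARS3, VARS1, YARS1, AARS2 and VARS2 had no entry. These windows were searched on both strands for the letters TGATGNAA (N is any base), the core of the composite element bound by ATF4 with C/EBP proteins. The motif was found in 7 of 16 cytosolic promoters (43.8%), in 1 of 14 mitochondrial promoters (7.14%) and in 0 of 3 scaffold promoters, against 1217 of 27305 promoters in all (4.46%). Among cytosolic genes counted as ATF4-responsive, 7 of 10 held it (70.0%), and among the other cytosolic genes 0 of 6. A match describes the letters only, and no binding was measured here. The windows of 30 bases that hold it are printed because this count rests on them, with the motif in capitals and each read 5′ to 3′ on the strand of the motif.
AARS1: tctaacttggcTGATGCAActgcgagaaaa
CARS1: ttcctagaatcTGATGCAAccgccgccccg
GARS1: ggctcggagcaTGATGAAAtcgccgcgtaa
IARS1: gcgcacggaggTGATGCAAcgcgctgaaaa
MARS1: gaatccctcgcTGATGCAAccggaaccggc
NARS1: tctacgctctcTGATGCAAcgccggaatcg
TARS1: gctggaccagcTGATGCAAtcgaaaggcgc
YARS2: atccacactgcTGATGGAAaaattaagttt

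The windows lie at chr16:70289675-70289704 (plus strand) for AARS1, chr11:3057407-3057436 (plus) for CARS1, chr7:30594834-30594863 (minus) for GARS1 and chr9:92293692-92293721 (plus) for IARS1. Those of MARS1, NARS1, TARS1 and YARS2 lie at chr12:57488053-57488082, chr18:57621804-57621833, chr5:33440956-33440985 and chr12:32756076-32756105, all on the minus strand. In CARS1, IARS1, MARS1, NARS1, TARS1 and GARS1 the motif begins between 33 bases before and 15 bases after the start site. In AARS1 and YARS2 it begins 187 and 197 bases before it. YARS2 is the only mitochondrial gene among the 8.

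Levels were compared between genes per length, as counts per codon scaled to a sum of 1000000 over all genes of a library. The 39 genes together took 0.699 to 0.759% of mRNA counts and 0.519 to 0.612% of footprint counts. In all 17 libraries the median cytosolic synthetase was above the median mitochondrial one. In mRNA the medians differed 3.49- to 4.03-fold at 36 h and 3.56- to 3.98-fold at 72 h. In footprints they differed 3.89- to 4.38-fold at 72 h. At 36 h the footprint values were 2.66-fold in Cas9 replicate a, 3.70-fold in Cas9 replicate c, 3.46-fold in dCas9 replicate d and 4.40-fold in dCas9 replicate e. The Cas9 and dCas9 libraries overlapped in this ratio at 36 h. At 72 h both Cas9 libraries were below both dCas9 libraries, at 3.56- and 3.74-fold against 3.93- and 3.98-fold in mRNA and at 4.17- and 3.89-fold against 4.28- and 4.38-fold in footprints. Without division by length they overlapped, with log2 differences of medians of 2.21 and 2.17 against 1.95 and 2.20 in mRNA. In footprints these were 2.13 and 2.12 against 2.09 and 2.18. The ratio of summed levels per length was again lower with Cas9, at 4.35 and 4.32 against 4.42 and 4.43 in mRNA. In footprints it was 4.44 and 4.44 against 4.6 and 4.63. With 2 libraries against 2, no exact permutation test can pass 0.05, and none was run.

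**Figure D1:**
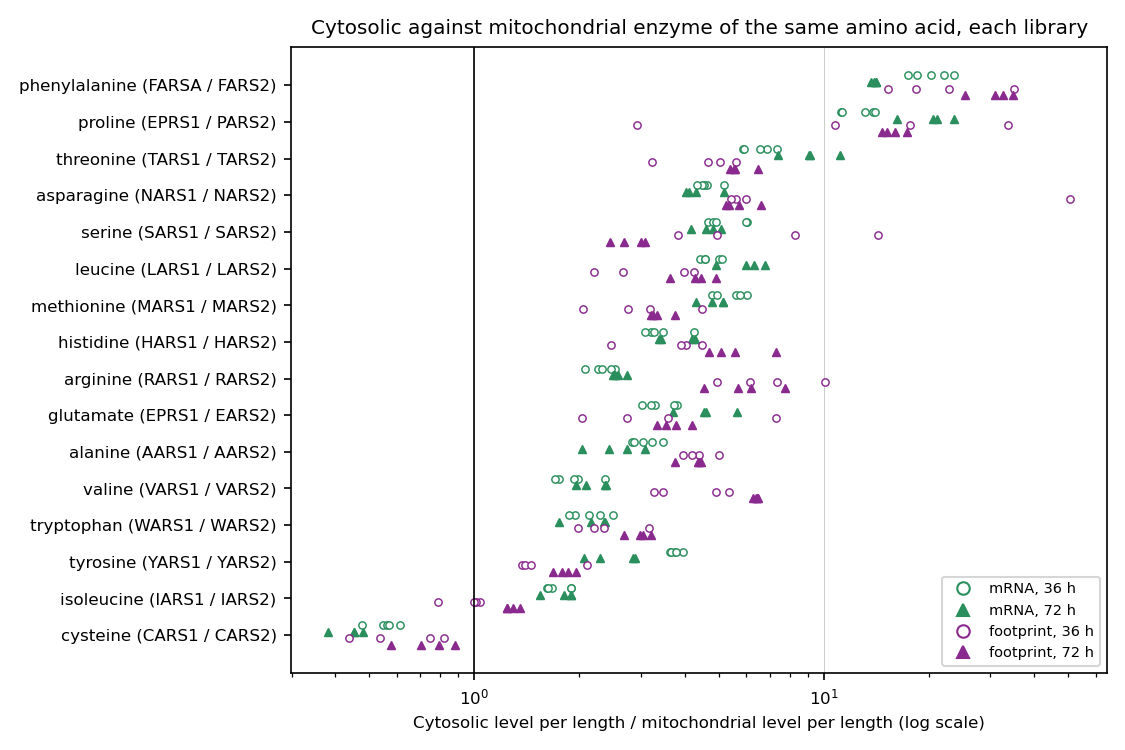
Median level per length (counts per codon scaled to a sum of 1000000, log axis) of the 20 cytosolic, 16 mitochondrial and 3 scaffold genes in each of the 17 libraries. The cytosolic median lies above the mitochondrial median in every library, by 2.66- to 4.40-fold.

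The compartments were also compared amino acid by amino acid, for the 16 amino acids with a member in each. The cytosolic gene was higher in 17 of 17 libraries for 14 of them. The lowest fold of any library was highest for phenylalanine, where FARSA, the catalytic alpha subunit of the cytosolic enzyme, was 13.7- to 34.9-fold above FARS2, and lowest for tyrosine, where YARS1 was 1.37- to 3.96-fold above YARS2. The rank of phenylalanine rests on the subunit chosen, since FARSB, the beta subunit, was 1.08- to 6.28-fold above FARS2, with a lowest fold below that of tyrosine. NARS1 was 4.02- to 50.6-fold above NARS2, with the highest value in a footprint library that had 2 counts of NARS2. Cysteine went the other way. CARS1, the cytosolic cysteinyl-tRNA synthetase, stood at 0.382 to 0.882 of the level of its mitochondrial counterpart CARS2 and was below it in 17 of 17 libraries. Isoleucine was the other exception, since IARS1 was above IARS2 in 15 of 17 libraries, with ratios from 0.789 to 1.89. IARS1 exceeded IARS2 1.73-fold in mRNA but not in footprints at 36 h (0.954-fold, geometric means), and 1.78-fold in mRNA against 1.28-fold in footprints at 72 h.

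Among all 39 genes, the highest footprint levels at 72 h were those of FARSA, at 221 ± 10.3 (SD, n = 4 libraries, both nucleases), and TARS1, the threonyl-tRNA synthetase of the cytosol, at 220 ± 9.33. These could not be told apart, and both exceeded every other member in each library. AIMP2, at 135 ± 4.47, and EEF1E1, at 111 ± 8.67, followed, both scaffold proteins of the complex. IARS2 was the highest mitochondrial gene at 68.8 ± 3.85, followed by YARS2 at 44.8 ± 2.38. The lowest of all were FARS2, at 7.2 ± 0.724, and PARS2, the mitochondrial prolyl-tRNA synthetase, at 5.65 ± 0.18. In between, most neighbours overlapped in range. The lowest library of a gene was above the highest library of the next one for 10 of the 38 neighbouring pairs at 72 h. At 36 h this held for 1 of 38, and FARSA (211 ± 25.6) and TARS1 (198 ± 34.6) again led. In mRNA the ranges were apart for 8 of 38 pairs at each time point. Genes with overlapping ranges can still keep 1 order in every library, which was not counted. TARS1 led the mRNA order, at 299 ± 18.2 (n = 5, 36 h) and 344 ± 27.5 (n = 4, 72 h), and PARS2 closed it at 8.47 ± 0.614 (36 h) and 6.98 ± 0.701 (72 h). The lowest cytosolic genes in footprints at 72 h were CARS1, at 17.8 ± 2.55, and TARS3, a paralog of TARS1, at 10.6 ± 1.89.

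**Figure D2:**
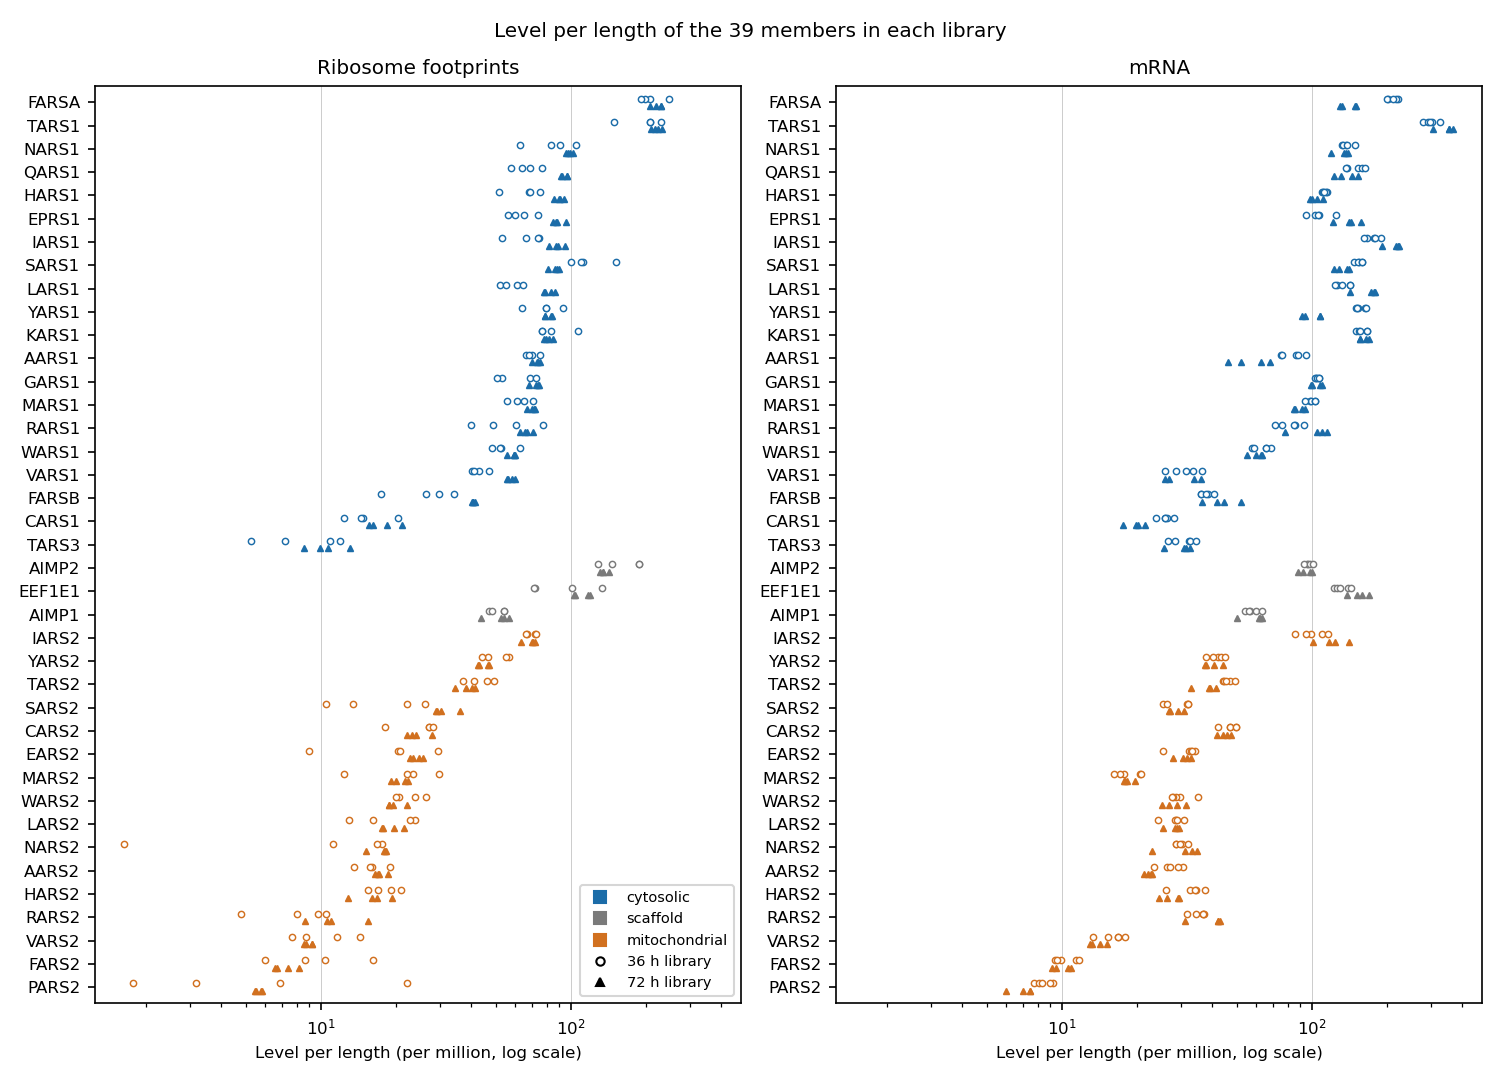
Level per length (counts per codon scaled to a sum of 1000000, log axis) of each of the 39 genes in every library, by library type and time point. FARSA and TARS1 lie at the top in footprints at 72 h, with means of 221 and 220, and PARS2 lies at the bottom with 5.65.

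The 7 synthetases of the multi-synthetase complex among the members lay close together in footprint level. At 72 h they ran from 66.4 (RARS1, arginine) to 94.3 (QARS1, glutamine), a 1.42-fold range, and at 36 h from 56.5 (RARS1) to 86.0 (KARS1, lysine), a 1.52-fold range. Their mRNA levels ranged 2.40-fold at 72 h, from MARS1 (88.9) to IARS1 (213), and 2.12-fold at 36 h. The 13 cytosolic synthetases outside the complex ranged 20.9-fold in footprints at 72 h, from TARS3 to FARSA, and the 3 scaffold proteins ranged 2.62-fold, from AIMP1 at 51.7 to AIMP2. Of those outside the complex, HARS1 (89.7), SARS1 (86.3), YARS1 (81.2), AARS1 (73.2) and GARS1 (72.4) also lay within its span at 72 h. FARSA, TARS1 and NARS1 lay above that span, and WARS1, VARS1, FARSB, CARS1 and TARS3 below it. The ranges of sets of unequal size are given side by side and were not tested against each other.

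The genes for the subunits of the cytosolic phenylalanyl-tRNA synthetase did not share a level. FARSA and FARSB encode its alpha and beta subunits, and the enzyme holds both in equal number. FARSA was above FARSB 5.42-fold in footprints at 72 h (5.10 to 5.66 over 4 libraries) and 3.22-fold in mRNA (2.47 to 4.12). At 36 h the values were 8.02-fold (5.77 to 14.2) and 5.56-fold (4.88 to 6.16). The transcript with the most counts, which was the one kept, was not the same for FARSA at the 2 time points, so its levels do not compare between them. AIMP2 was above AIMP1 2.63-fold in footprints and 1.60-fold in mRNA at 72 h. TARS1 exceeded its paralog TARS3 21.1-fold in footprints (17.7 to 24.5) and 11.5-fold in mRNA (11.2 to 11.8) at 72 h, and 23.4-fold and 9.74-fold at 36 h. Reads that both paralogs share may be assigned to either, which the counts do not show.

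The ratio of footprints to mRNA (a measure of ribosomes per transcript) was tested within dCas9 cells by the same edgeR fit, a contrast added after the values had been seen. A log2 ratio of 0 is that of the average tested gene. At 36 h, 3 members were above (23.6% of all tested genes were) and 15 below (24.6%), with a median of -0.31 over the members against -0.01 over all tested genes. At 72 h, 10 members were above (32.7% of all genes) and 15 below (37.8%), with medians of -0.03 and -0.06. The direction was the same at both time points, past the false discovery rate (FDR) of 0.1, for 12 members and opposite for 0. How many of all tested genes kept their direction in this way was not counted. The agreement is therefore not shown to be particular to the members. Footprint and mRNA libraries of 36 h with the same letter were taken to come from a shared lysate. With the lysate as a block, also added later, 3 members were above (16.5% of all tested genes) and 9 below (18.6%) at 36 h, and CARS1, HARS1, MARS1, TARS1, AARS2 and HARS2 no longer passed.

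The 9 members below average at both were GARS1, IARS1, KARS1, LARS1, QARS1, TARS1 and TARS3 of the cytosol and HARS2 and RARS2 of the mitochondria. TARS1 and HARS2 were past the threshold at 36 h only without the lysate block (adjusted p = 0.109 and 0.187 with it). RARS2, the mitochondrial arginyl-tRNA synthetase, had the lowest fitted value at both time points. At 36 h it could not be told apart from TARS3, and with the lysate block the values were -1.61 for RARS2 and -1.62 for TARS3. The log2 ratio of RARS2 in the dCas9 libraries was -1.50 and -1.78 in those of 36 h, and -1.71 and -1.40 in those of 72 h. The fitted values were -1.58 ± 0.26 (SE, adjusted p = 0.000247) and -1.54 ± 0.17 (adjusted p = 9.55e-07). RARS2 mRNA was 2.32- and 2.58-fold below that of RARS1 at the time points, but its footprints were 6.90- and 5.93-fold below. TARS3 had fitted log2 ratios of -1.47 ± 0.26 and -1.09 ± 0.16, and IARS1 of -0.97 ± 0.13 and -0.79 ± 0.087.

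The 3 members above average at both were VARS1 (valine), AIMP2 and YARS2, the mitochondrial tyrosyl-tRNA synthetase. VARS1 had log2 ratios of 0.61 and 1.18 in the dCas9 libraries of 36 h and of 1.03 and 1.11 in those of 72 h. The fit gave 0.87 ± 0.17 (adjusted p = 0.000759) and 1.07 ± 0.098 (adjusted p = 1.02e-07). AIMP2 stood at 1.00 ± 0.17 and 0.90 ± 0.11, and YARS2 at 0.69 ± 0.18 and 0.63 ± 0.12. FARSA and AARS1 were above average at 72 h, at 1.05 ± 0.11 and 0.57 ± 0.096, while at 36 h their values were 0.16 ± 0.13 and 0.02 ± 0.14 and did not pass the test (adjusted p = 0.333 and 0.94).

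Over the 39 members, the Spearman correlation of the dCas9 ratio with coding GC content was 0.251 at 36 h and 0.43 at 72 h, and that with coding length was -0.319 and -0.333. Over all tested genes the values were 0.259 and 0.348 for GC content, and -0.257 and -0.316 for length. The points of a time point share their libraries, so these are descriptions, and the part of GC content and length in the ratios was not tested. In footprints of dCas9 replicate e at 36 h, the shallowest library, NARS2 had 2 counts against 140 in replicate d, and its log2 ratio there was -3.96 against -0.52.

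**Figure D3:**
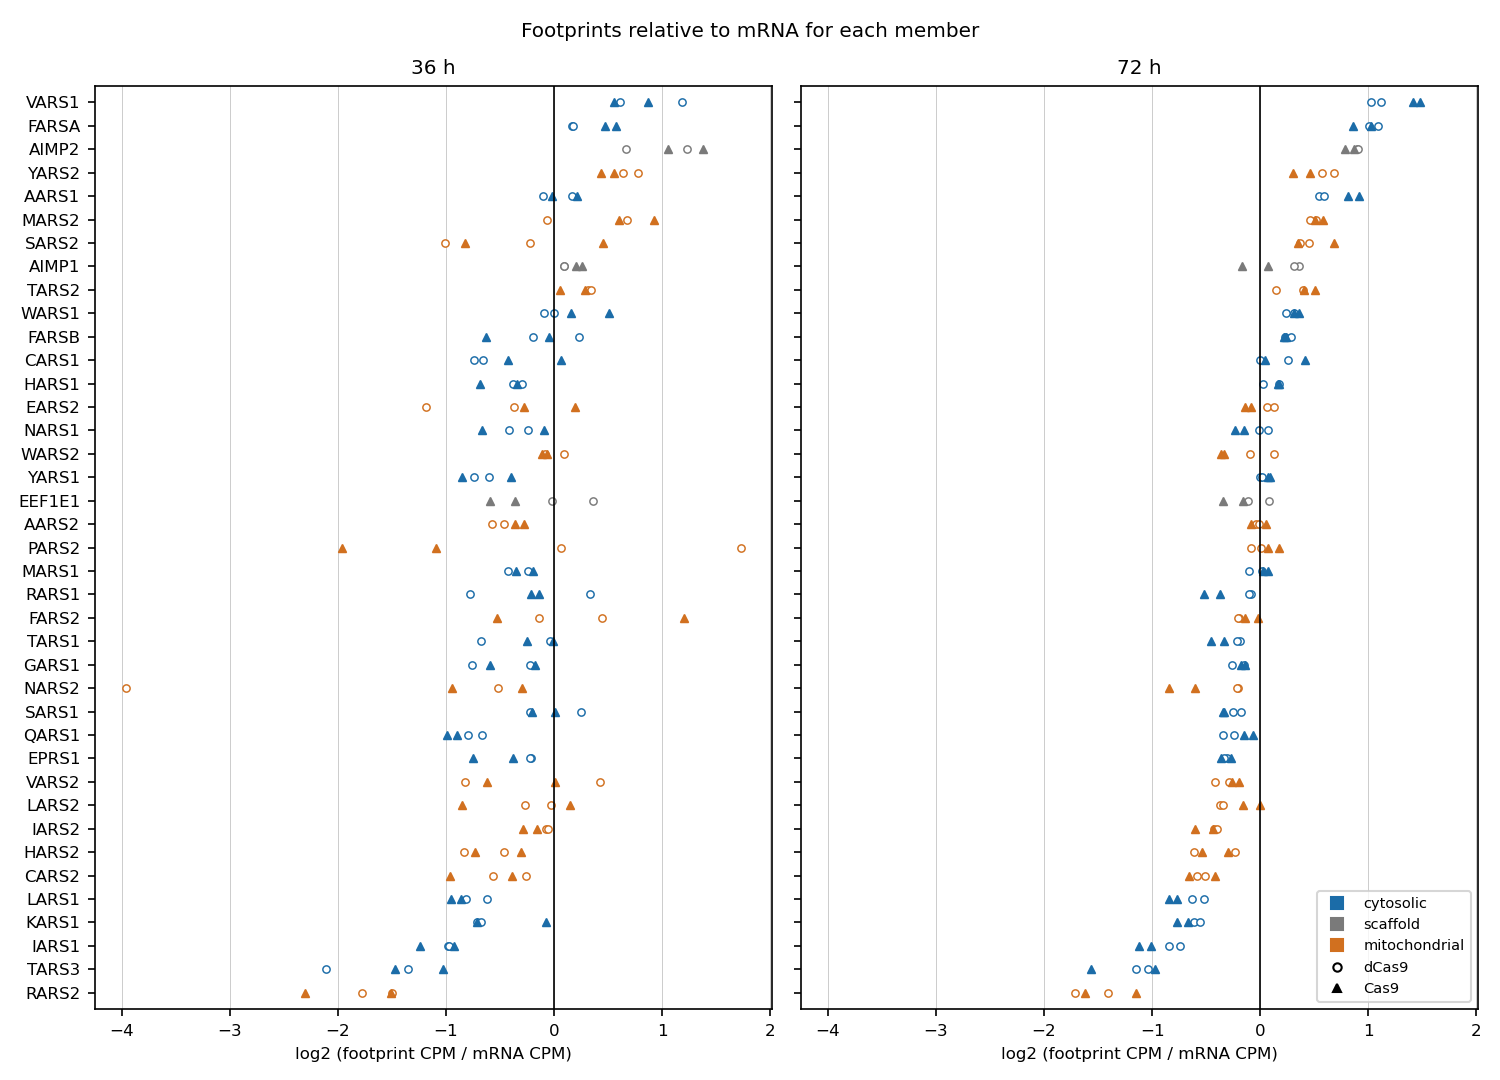
Log2 ratio of footprints to mRNA in dCas9 cells for each of the 39 genes at 36 h and 72 h, with standard errors of the fit, where 0 is the average tested gene. RARS2 has the lowest fitted value at both time points (-1.58 and -1.54), with standard errors that overlap those of TARS3 at 36 h, and VARS1 and AIMP2 lie near 1 at both.

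The main comparison of the study set Cas9 against dCas9. At 36 h no member passed the FDR of 0.1 by edgeR in footprints, mRNA or translational efficiency (the change in footprints minus the change in mRNA), and neither did any other gene (0.0% of 9016 in each). At an unadjusted p under 0.05 there were 862 genes and 3 members in footprints, 26 genes and 1 member in mRNA, and 568 genes and 1 member in translational efficiency. The fit shares a single spread between library types, and at 36 h the biological coefficient of variation was 30% for footprints, 11.2% for mRNA and 15% for both together. The standard errors of footprint changes at 36 h are therefore smaller, and those of mRNA changes larger, than with each library type alone, where 188 genes in footprints and 422 in mRNA had an unadjusted p under 0.05 and 0 and 2 genes, none of them a member, passed the FDR. DESeq2 called 46, 0 and 1 genes, none of them a member. The median log2 change in footprints was 0.02 for cytosolic and 0.08 for mitochondrial synthetases, against 0.02 for all tested genes. In mRNA the medians were -0.03 and 0.01, against 0.00. For translational efficiency they were 0.04 and 0.01, against 0.01. Each footprint median lay within the quartiles over all tested genes, -0.235 and 0.257.

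PARS2 had the smallest unadjusted p of the members in footprints at 36 h. Its footprints were 3.453 and 5.999 CPM with Cas9 and 12.1 and 43.5 CPM with dCas9. The groups did not overlap, but the values rest on 3, 14, 57 and 27 counts, and the dCas9 libraries lay far apart. The log2 change was -2.14 ± 0.65 (adjusted p = 0.40), or -2.40 ± 0.95 with footprints fitted alone (adjusted p = 0.999), and its mRNA changed by 0.02 ± 0.40. EEF1E1, known also as AIMP3, had 47.2 and 45.85 CPM with Cas9 and 60.1 and 88.5 CPM with dCas9, a change of -0.59 ± 0.25 (adjusted p = 0.474). MARS2, the mitochondrial methionyl-tRNA synthetase, went the other way, with 57.55 and 70.7 CPM against 49.1 and 30.6 CPM (0.59 ± 0.26, adjusted p = 0.496). FARSA had 518 and 423 CPM with Cas9 against 373 and 401 CPM with dCas9 (0.28 ± 0.13, adjusted p = 0.532). All of these were named by a rule that requires the Cas9 and dCas9 libraries to be apart, so their separation is no result. None of them passed the test.

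The footprint results at 36 h turned on single libraries. Without dCas9 replicate d, the deepest, the lone dCas9 library was replicate e, the shallowest, and 918 genes (10.2%) and 7 members were called: SARS1, TARS1, EEF1E1, EARS2, MARS2, NARS2 and PARS2. Without replicate e, 1 gene and 0 members were called, and the change of PARS2 was -1.22 (adjusted p = 0.354) in place of -3.06 (adjusted p = 0.0154) without replicate d. Without Cas9 replicate c, 323 genes (3.58%) and 0 members were called, and the cytosolic median went from 0.02 to -0.163. Without Cas9 replicate a, 3 genes and 0 members were called. In each such fit the lone library is assumed to vary like the others.

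In mRNA at 36 h the members with the smallest p that moved the same way in every pair of libraries were IARS2 (0.23 ± 0.10) and MARS2 (0.20 ± 0.20) upward, and WARS1 (-0.19 ± 0.14) and TARS2 (-0.10 ± 0.13) downward, each with an adjusted p of 1.00. IARS2 had 317, 354 and 362 CPM with Cas9 and 296 and 292 CPM with dCas9. WARS1, the tryptophanyl-tRNA synthetase of the cytosol, had 83.6, 95.7 and 83.4 CPM with Cas9 and 97.5 and 101.5 CPM with dCas9. In translational efficiency the changes were 0.36 ± 0.17 for FARSA, 0.51 ± 0.30 for CARS1, -2.16 ± 0.77 for PARS2 and -0.34 ± 0.16 for EPRS1, the enzyme for both glutamate and proline, and none of their adjusted p-values was under 0.78.

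**Figure D4:**
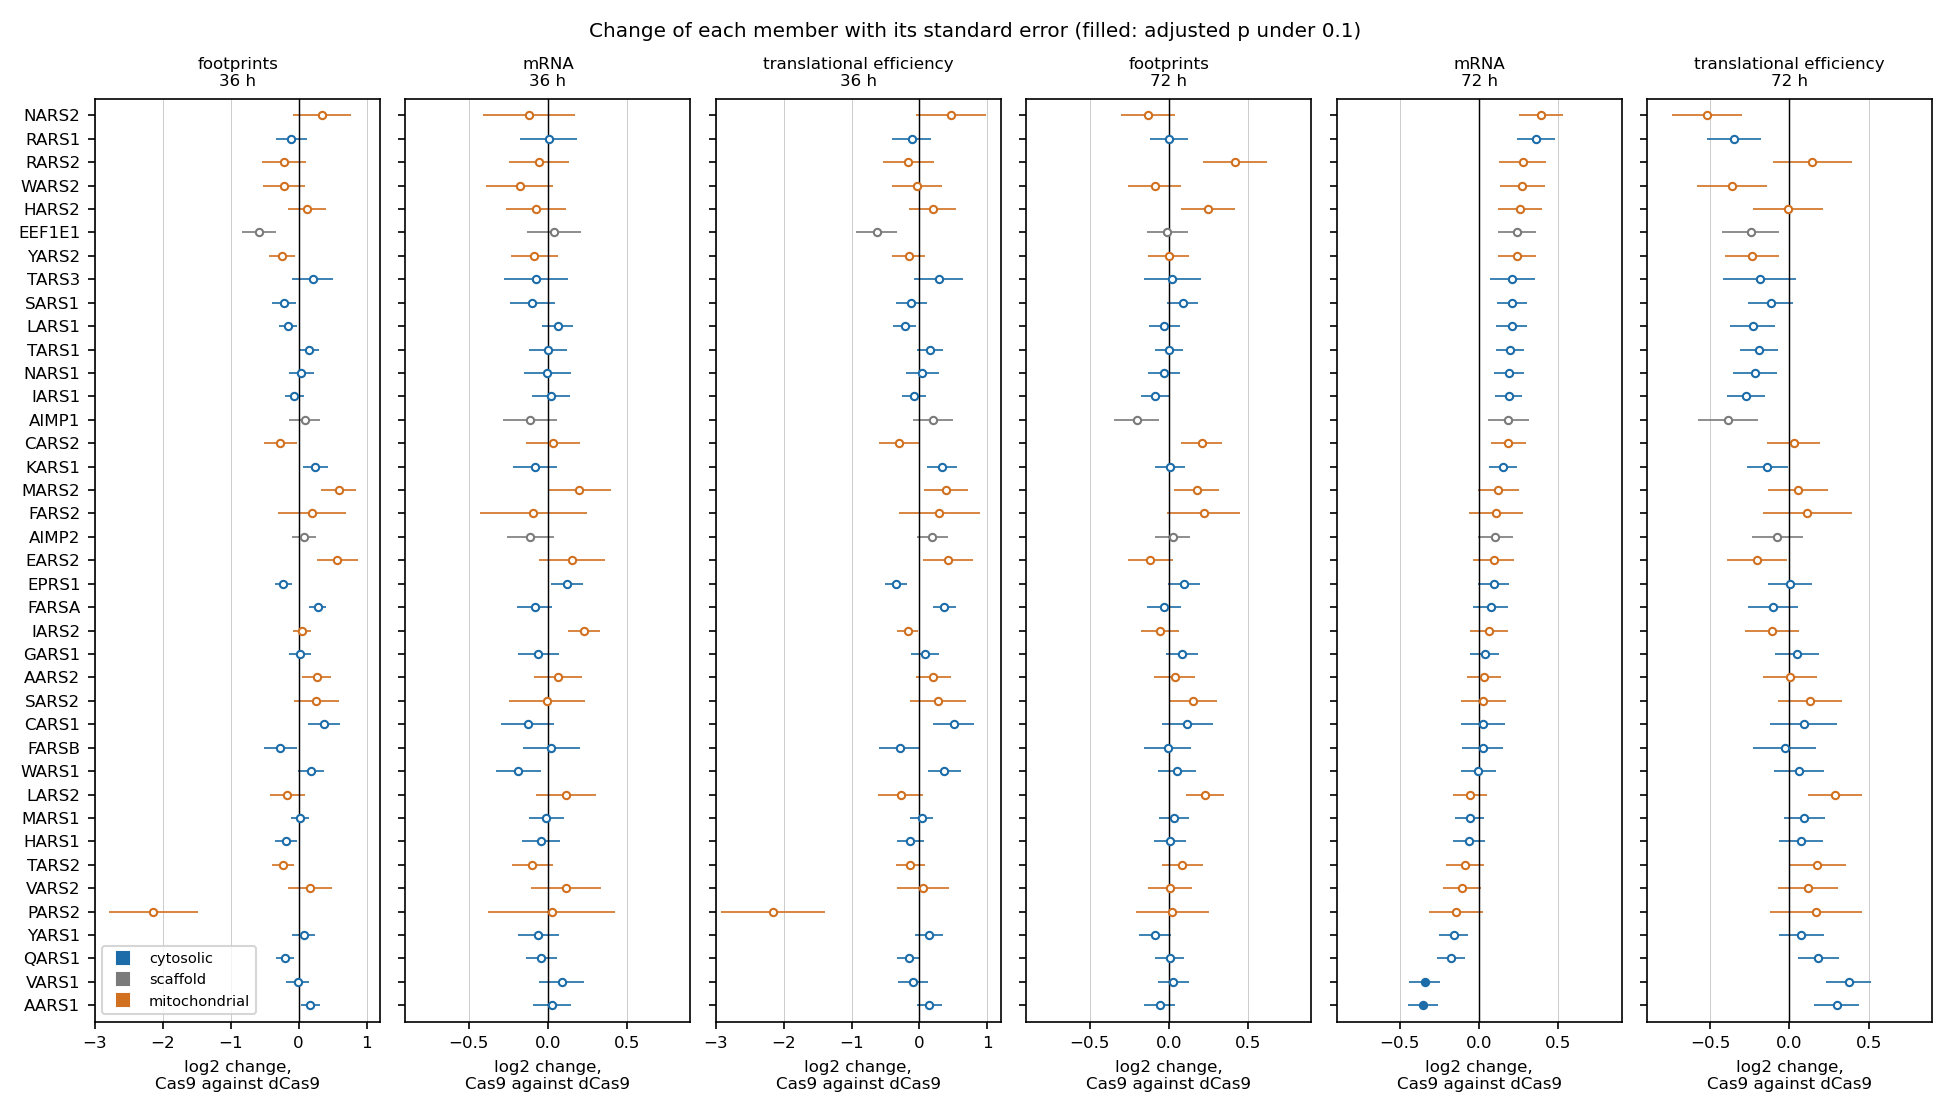
Fitted log2 change (Cas9 minus dCas9, with standard errors) of each of the 39 genes in footprints, mRNA and translational efficiency at 36 h and 72 h, with the axis of each panel set by its own values. Points past an FDR of 0.1 are AARS1 and VARS1 in mRNA at 72 h, at -0.36 and -0.34, and there are none in the other panels.

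At 72 h no member passed the FDR in footprints, and neither did any other gene (0.0% of 10896, with 396 genes and 1 member at an unadjusted p under 0.05, and 0 genes by DESeq2). The footprint medians were 0.01 for cytosolic and 0.06 for mitochondrial synthetases against 0.00 for all genes. Over the 39 members the median size of the footprint change was 0.05 in log2, against 0.11 over all tested genes. It was 0.03 for cytosolic and 0.12 for mitochondrial synthetases. In footprint level the members lay between percentiles 49.6 (PARS2) and 96.2 (FARSA) of all counted genes, and genes of like level were not set beside them. The smaller size is therefore not shown to be particular to the members. RARS2 had the smallest p, with 34.1 and 24.8 CPM with Cas9 and 19.1 and 23.7 CPM with dCas9 (0.42 ± 0.20, adjusted p = 1.00). LARS2 (0.23 ± 0.12), AIMP1 (-0.20 ± 0.14) and YARS1 (-0.09 ± 0.10) were the other members named by the rule, each with an adjusted p of 1.00.

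In mRNA at 72 h, 2 members fell with Cas9, AARS1 and VARS1, and 0 rose, where 5.2% of all tested genes fell and 0.422% rose (567 and 46 of 10896). AARS1 encodes the alanyl-tRNA synthetase of the cytosol (ENSG00000090861, chr16:70251983-70289707, minus strand, hg38, GENCODE 44). Its mRNA was 186 and 194 CPM in the dCas9 libraries and 141 and 156 CPM in the Cas9 libraries, so both Cas9 values lay below both dCas9 values. The log2 change was -0.36 ± 0.095 (SE, adjusted p = 0.0511), a level of 0.782 of that with dCas9. Its footprints were 278 and 286 CPM with dCas9 and 262 and 280 CPM with Cas9, which overlap, and the change was -0.06 ± 0.099 (adjusted p = 1.00). The difference between both changes, 0.30 ± 0.14, did not pass the test of translational efficiency (adjusted p = 0.432). AARS1 overlaps DDX19B on the other strand, and whether the counts used strand is not given in the sources used here.

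VARS1 encodes the cytosolic valyl-tRNA synthetase (ENSG00000204394, chr6:31777518-31795752, minus strand). Its mRNA was 140 and 127 CPM with dCas9 and 104 and 106 CPM with Cas9, again without overlap. The change was -0.34 ± 0.097 (adjusted p = 0.0628), a level of 0.788 of that with dCas9. Its footprints were 272 and 289 CPM with dCas9 and 294 and 280 CPM with Cas9, a change of 0.03 ± 0.099 (adjusted p = 1.00). The translational efficiency term was 0.37 ± 0.14 (adjusted p = 0.325) and had the same sign in 16 of 16 combinations, which share libraries. Both genes were named because their mRNA was called, so the separation of their mRNA groups is no separate result. How many of all tested genes were apart in mRNA and overlapped in footprints was not counted. In neither gene did the contrast between library types pass its test.

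Both calls were close to the threshold. At 72 h the biological coefficient of variation was 7.57% for footprints, 11.1% for mRNA and 10.3% for both together. With mRNA libraries fitted alone, the changes were the same, -0.35 and -0.34, and the adjusted p-values were 0.215 for AARS1 and 0.243 for VARS1. AARS1 lost the call without mRNA Cas9 replicate a (-0.30, adjusted p = 0.691) and without either dCas9 footprint library (adjusted p = 0.123 and 0.125). VARS1 lost it without mRNA Cas9 replicate a (adjusted p = 0.513), mRNA Cas9 replicate b (0.126 as adjusted p), mRNA dCas9 replicate a (-0.26, adjusted p = 0.156), either dCas9 footprint library (adjusted p = 0.142 and 0.144) or footprint Cas9 replicate f (adjusted p = 0.101). VARS1 also lost it with the replicate letter as a block (-0.34, adjusted p = 0.106), under which AARS1 kept it (adjusted p = 0.0685). Over 18 alternatives the change stayed between -0.46 and -0.30 for AARS1 and between -0.47 and -0.26 for VARS1, past the threshold in 14 and 10 of them.

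The members with the largest increases in mRNA at 72 h were RARS1 and NARS2, and neither passed the test. RARS1 (chr5:168486451-168519301, plus strand), the arginyl-tRNA synthetase of the complex, had 157 and 203 CPM with dCas9 and 238 and 223 CPM with Cas9. The change was 0.36 ± 0.12 (adjusted p = 0.113), and that in footprints was 0.00 ± 0.12. NARS2 (chr11:78435620-78575194, minus strand), the mitochondrial asparaginyl-tRNA synthetase, had 33.0 and 42.9 CPM with dCas9 and 51.5 and 48.1 CPM with Cas9 (0.39 ± 0.14, adjusted p = 0.164). In both genes dCas9 replicate a was the low library. Without mRNA dCas9 replicate b the changes were 0.50 (adjusted p = 0.0038) and 0.54 (adjusted p = 0.0131), and without replicate a they were 0.20 (adjusted p = 0.339) and 0.23 (adjusted p = 0.43). IARS1, whose mRNA had 743 and 811 CPM with dCas9 and 889 and 882 CPM with Cas9, changed by 0.19 ± 0.086 in mRNA (adjusted p = 0.279) and by -0.27 ± 0.12 in translational efficiency (adjusted p = 0.428).

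For translational efficiency at 72 h, 0 members were called, where 0.698% of all genes rose and 0.0184% fell (76 and 2 genes, and 221 by DESeq2). At an unadjusted p under 0.05 there were 1219 of 10896 genes and 4 members. These members were VARS1, AARS1, NARS2 (-0.52 ± 0.22, adjusted p = 0.397) and IARS1. In mRNA there were 1855 of 10896 genes and 8 members. Besides AARS1 and VARS1 these were IARS1, LARS1, RARS1, SARS1, TARS1 and NARS2, each of these 6 with a change above 0.

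By group at 72 h, 28 members had an mRNA change above 0 and 11 below. The median was 0.05 for cytosolic synthetases, 0.10 for mitochondrial synthetases and 0.19 for the 3 scaffold genes, against 0.02 for all tested genes, with quartiles of -0.16 and 0.16. The mitochondrial median was -0.03 without mRNA dCas9 replicate b. The 10 genes of the complex had a median of 0.17, with 8 above 0 and 0 called, and a median translational efficiency of -0.19 with 0 called. The 13 ATF4-responsive cytosolic genes, which include both called ones, had a median mRNA change of 0.03, and the 7 other cytosolic genes one of 0.07. The 8 members with the motif had a median of 0.11, with 6 above 0 and AARS1 called, and the 25 members whose promoter lacked it had a median of 0.10 with 0 called.

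The mRNA changes at 72 h went with base composition. Across the 39 members they had a Pearson correlation of -0.534 and a Spearman correlation of -0.562 with coding GC content, against -0.361 and -0.415 across 10854 tested genes. All 11 members with a GC content under 45% had a change above 0 (median 0.20), as had 79.6% of all genes in that range (median 0.17). Of the 11 members with 55% or more, 6 were above 0 (median 0.03), against 36.6% of all genes (median -0.07). With the dependence on GC content removed from each library, the medians became 0.07 and 0.11. The genes of a fit share their libraries, so the correlations are descriptions only. With GC content removed, 9 members were called of 1929 genes (17.7%). AARS1 (-0.31, adjusted p = 0.00631) and VARS1 (-0.26, adjusted p = 0.0167) stayed below 0, and RARS1 (0.18, adjusted p = 0.0838), NARS2 (0.31, adjusted p = 0.0343), SARS1, CARS2, HARS2, WARS2 and YARS2 were above it.

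**Figure D5:**
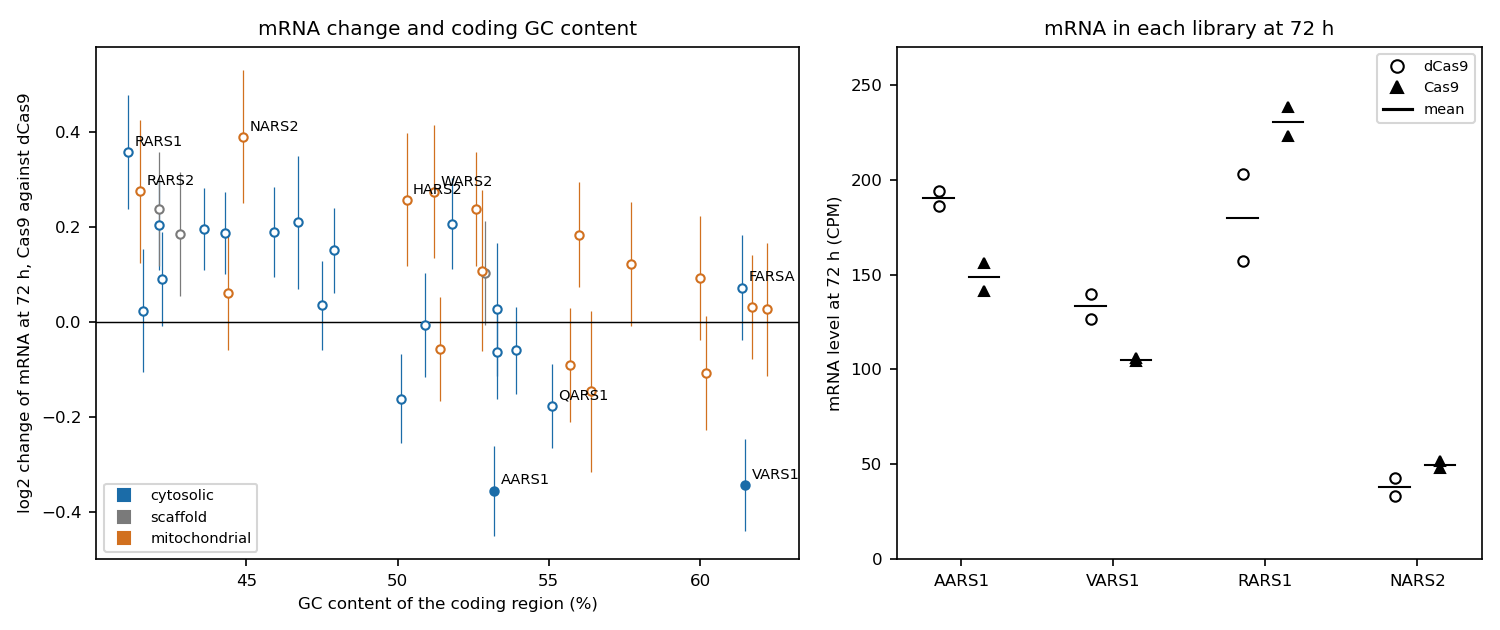
Left, mRNA level in CPM of AARS1, VARS1, RARS1 and NARS2 in the 2 dCas9 and 2 Cas9 libraries of 72 h; right, log2 mRNA change (Cas9 minus dCas9) against the GC content of the coding region in percent for the 39 genes. AARS1 and VARS1 are lower in both Cas9 libraries, and all 11 genes under 45% GC lie above 0.

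GARS1 and KARS1 each encode the cytosolic and the mitochondrial enzyme, for glycine and lysine. GARS1 had 227 and 238 CPM of mRNA with dCas9 and 231 and 246 CPM with Cas9 at 72 h, a change of 0.03 ± 0.094, and its footprints changed by 0.08 ± 0.099. KARS1 had 297 and 285 CPM with dCas9 and 323 and 323 CPM with Cas9 (0.15 ± 0.090, adjusted p = 0.408), and its footprints changed by 0.01 ± 0.096. At 36 h their footprint changes were 0.02 ± 0.16 and 0.25 ± 0.18, and neither gene was called anywhere.

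HARS1 and HARS2, the histidine enzymes of the compartments, lie head to head on chromosome 5 with start sites 85 bases apart, and the annotated genes overlap. Their levels differed 5.57-fold in footprints and 3.80-fold in mRNA at 72 h. HARS1 mRNA was 170 and 155 CPM with dCas9 and 156 and 156 CPM with Cas9 (-0.06 ± 0.099), whereas HARS2 had 40.3 and 36.0 CPM against 45.9 and 45.2 CPM (0.26 ± 0.14, adjusted p = 0.367). HARS2 did not pass the test of the main fit. Its mRNA groups were apart, but how many of all tested genes were apart in this way was not counted. In footprints HARS2 had 32.4 and 25 CPM with dCas9 and 37.1 and 31.3 CPM with Cas9, which overlap (0.25 ± 0.17).

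The scaffold proteins were called in no comparison of the main fit. At 72 h mRNA of EEF1E1 was 67.2 and 70.9 CPM with dCas9 and 84.6 and 78.1 CPM with Cas9 (0.24 ± 0.12, adjusted p = 0.314). AIMP1 had 49.8 and 60.3 CPM against 63.65 and 61.6 CPM (0.19 ± 0.13), with footprints of 70.7 and 68.4 CPM against 65.9 and 55.7 CPM. Its translational efficiency changed by -0.39 ± 0.19 (adjusted p = 0.462). AIMP2 had mRNA of 92.6 and 79.5 CPM against 89.5 and 95.4 CPM (0.10 ± 0.11).

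WARS1 is known to be induced by interferon, and guides transcribed in vitro, as used at 72 h, can set off an interferon response. Its mRNA was 89.2 and 81.2 CPM with dCas9 and 80.5 and 89.3 CPM with Cas9 at 72 h, a change of -0.01 ± 0.11, and its footprints changed by 0.05 ± 0.12. Both groups had received the same kind of guide. Of 8 interferon-induced genes listed beside it, 2 could be tested at 36 h and 3 at 72 h, and 0 were called.

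Of 19 partners of aminoacylation that are no members (elongation factors that carry charged tRNA, tRNA editing, export and amidation enzymes), 18 were tested at 72 h. 1 of them rose in mRNA, EEF1A1, the elongation factor that delivers charged tRNA to the ribosome (0.27, adjusted p = 0.0377), and the median was 0.13. Of all tested genes 0.422% rose. Of 17 ATF4 targets outside the synthetases, 15 were tested at 72 h, and 2 fell in mRNA, where 5.2% of all tested genes fell. These were PSAT1 (-0.38, adjusted p = 0.0697) and PHGDH (-0.32, adjusted p = 0.0628), both enzymes of serine synthesis. With mRNA libraries fitted alone, calls over all genes went from 613 to 293 and increases from 46 to 3. The values of EEF1A1, PSAT1 and PHGDH in that fit are not given here. In footprints at 36 h, 10 of 14 tested ATF4 targets had a change above 0, with a median of 0.20 and 0 called, beside a median of 0.02 for the 13 ATF4-responsive synthetases.

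Changes at 72 h were also set against those at 36 h in a joint fit, added after the values had been seen. In footprints 2 of 8970 genes and 0 members differed, and the member with the smallest adjusted p was PARS2 (a difference of 2.01, adjusted p = 0.417). In mRNA 47 genes and 0 members differed, with AARS1 closest (-0.37, adjusted p = 0.558). The lower mRNA of AARS1 at 72 h was therefore not shown to differ from its change at 36 h, 0.02 ± 0.12. By the methods, the time points differ in guide, aligner and annotation as well, which cannot be told apart from time.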

How the data were processed

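Ribosome footprints and mRNA of HEK293 cells were analysed in 17 libraries, grouped by their labels. By the methods, the authors aligned reads with hisat2 (36 h) or tophat (72 h) to GRCh38 and counted reads per transcript with fp-count. The submitters' processing notes name HISAT2 2.1.0 for all samples, and this difference for 72 h was not resolved. The deposited values are unnormalized counts with a coding length in codons. Transcripts were matched to GENCODE 44 genes (3.741% and 4.218% of counts matched none), and the transcript with the highest summed count per gene and time point was kept. Both library types of a time point were fitted together in edgeR 4.0.16 (R 4.3.3): TMM, a mean per nuclease and library type, quasi-likelihood F test, Benjamini-Hochberg over all tested genes, FDR 0.1, mean count of at least 20 in footprints and in mRNA. SE is the log2 change over the square root of F. CPM divides counts by the tested total times the TMM factor. Pairs of single libraries used a prior count of 2. The fit was tested on simulated data.

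Members, lists, promoter motif and tests were chosen with earlier results of these data known. Named with full values were members past the FDR, those with the smallest p and 1 direction in every pair in each comparison (2 per direction), the 2 highest and 2 lowest footprint levels per compartment, and genes of both compartments, paralogs, neighbours, scaffold genes and WARS1, 27 in all. Alternatives were DESeq2 1.42.0, its size factors, other count filters, each library type alone, the replicate block, GC content removed by loess (span 0.5), the 36 h transcript at 72 h, levels without length, and each library left out. The crossed block, the ratio within a nuclease, the lysate block for that ratio at 36 h and the joint fit of time points were chosen after seeing the data. Per the methods each lysate served both library types, so equal letters at 36 h were taken as a shared lysate (correlations of deviations 0.065, 0.017, 0.011 and 0.011). At 72 h the library types carry different letters and could not be matched. For mRNA library Cas9 b of 36 h, no footprints were analysed here. Near-identical genes and 13 members that overlap a coding gene on the other strand (5 on the same strand) are uncertain, as the use of strand in counting is not given in the sources used here.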

Additional observations from a re-analysis of the deposited data

How the results depend on the processing

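Of the counts of called members and the group medians, 295 values under an alternative stayed within 1.5 times the count or, for medians and levels, within the spread of library pairs or libraries. Another 7 counts rose and 9 fell past that, and 10 medians or levels moved past it. No called change of a named member turned sign, but group medians did. The count of members called in mRNA at 72 h, 2 (AARS1 and VARS1), depended on the most settings. It was 0 with each library type alone, 1 with the replicate block (VARS1 lost), 9 with GC content removed, 9 with GC content removed and the replicate block, and between 0 and 8 without single libraries, 8 without mRNA dCas9 replicate b and 0 without mRNA Cas9 replicate a or footprint dCas9 replicate e or f. Over all genes, mRNA calls at 72 h were 613, and 831 with DESeq2, 293 with mRNA alone, 1929 with GC content removed and 110 to 2472 without single libraries. Members called in footprints at 36 h numbered 0, and 0 to 7 without single libraries (7 without dCas9 replicate d). In translational efficiency they numbered 0 at both times, and 0 to 2 at 36 h (2 without footprint dCas9 replicate d) and 0 to 3 at 72 h (3 without mRNA dCas9 replicate b). The cause of these differences was not tested.

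Without single libraries, the cytosolic medians at 36 h ranged from -0.163 to 0.0536 in footprints and from -0.149 to 0.0834 in translational efficiency (lowest without footprint Cas9 replicate c, against 0.02 and 0.04), and the mitochondrial median of translational efficiency from -0.0822 (without mRNA Cas9 replicate c) to 0.0647. At 72 h the mitochondrial median ranged from -0.033 (without mRNA dCas9 replicate b) to 0.183 in mRNA and from -0.0141 to 0.118 in translational efficiency, where it was -0.0242 with GC content removed and -0.015 with the replicate block added to that. Without division by length, the log2 difference between cytosolic and mitochondrial levels was 2.22 in footprints and 2.21 in mRNA at 36 h and 2.13 in mRNA at 72 h, against 1.81, 1.89 and 1.93 per length.

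At 36 h footprint and mRNA libraries of equal letter were taken to come from 1 lysate. With the lysate as the replicate block, 0 members were called in translational efficiency, as without it, and members below the average ratio in dCas9 cells numbered 9 in place of 15. At 72 h Cas9 and dCas9 libraries share only a letter, and their deviations correlated at -0.14 in mRNA and 0.011 in footprints. The replicate block moved mRNA calls at 72 h from 613 to 535 genes. With letters a and b of the dCas9 mRNA libraries crossed, an alternative chosen after seeing the data, 1133 genes and 4 members were called. For single members, 2452 values kept sign and call, 154 uncalled changes turned sign, 28 gained and 12 lost a call. Depth limits the footprints of 36 h most, where NARS2 had as few as 2 and PARS2 as few as 3 counts, and 2 or 3 libraries a group limit all p-values.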
